A study of Mus musculus with 11 samples.

Results

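Nuclear factors that set the identity of macrophages and microglia, the resident macrophages of the brain, were followed across the microarrays. The list held 9 genes, Spi1, Irf8, Maf, Runx1, Cebpa, Cebpb, Mef2a, Bhlhe40 and Bhlhe41. They were found by pairing the transcript each probe was designed on with a gene symbol, which gave 7 of the 9 genes and 10 of the 60037 probes on the array. Spi1 and Irf8 had no paired probe and were not analysed here. The study asked how far microglia change when they leave the brain for a culture dish, and whether cytokines of the brain environment counteract that change. Total RNA of C57BL/6N mouse microglia was measured on 11 single-colour arrays in 4 groups. A_FACS (2 arrays) held microglia of adult females, 12 to 24 weeks of age in the study's methods, sorted by flow cytometry and used at once. NB_FACS (3 arrays) held cells sorted in the same way from newborns of both sexes at postnatal day 1 to 3. NB_Control (3 arrays) held newborn microglia that had been shaken off mixed glial flasks, fed with L-929 conditioned medium as a source of M-CSF, and kept for 1 day in DMEM/F12 with 10% fetal bovine serum. In the study's methods, microglia were harvested from such flasks 18 to 34 days after isolation of the brain cells, before that 1 day. NB_Stim (3 arrays) held cells of the same origin whose medium also contained human CX3CL1, TGF-β1 and IL-34, each at 100 ng/mL. The sort took cells high in CX3CR1 and intermediate in CD45 after a Percoll step against myelin, with no inhibitor of transcription during digestion. Each flask pooled 2 to 3 brains. Age and sex cannot be told apart between A_FACS and NB_FACS. Culture, the days in flasks, the time since birth and the way of isolation cannot be told apart between NB_FACS and both cultured groups.

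Spi1 encodes PU.1, the ETS factor without which macrophages do not form, and Irf8 its interferon-regulatory partner. Maf is a basic leucine zipper factor of mature, non-dividing macrophages. Runx1 is a RUNT factor of blood formation that pairs with Cbfb, and its gene is transcribed from a distal and a proximal promoter. Cebpa and Cebpb belong to the C/EBP family, with Cebpa needed early in the myeloid lineage and Cebpb linked to inflammatory and metabolic genes. Mef2a is a MADS-box factor whose binding motif is common in microglial enhancers. Bhlhe40 and Bhlhe41 are closely related repressors that bind E-boxes, are part of the circadian clock, and act in the proliferation of macrophages and in the lipid response of microglia.

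Runx1 and Bhlhe41 were each read by several probes, so the 30 bases at the start of these probes are shown, with that of the single Maf probe, because the results on these genes turn on which probe is read. The letters are those of the array design, 5′ to 3′, and no base is set in capitals.
Runx1, MMXS34828: ggaaacgatggcttcagacagcatttttga
Runx1, MMXS56176: ttccctctttcagccaggtcggtatagcca
Runx1, MMXS19516: gaatttattgagtaatgacaagtgatccta
Bhlhe41, MMXS09928: ttgctactgtttgcctcaaacgctgtgttt
Bhlhe41, MMXS51575: tacatctgttttttcagggtttcagccttt
Maf, MMXS36035: gagttactaactaaccacgcgtgacgttct
The 3 Runx1 probes were designed on 3 different RefSeq transcripts of the gene, and the 2 Bhlhe41 probes on 2. Which exon each probe lies in was not analysed here.

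RefSeq lists 2 starts for Runx1 and 1 for Bhlhe41, and the 250 bases before each start are shown because the Runx1 probes disagreed and because Bhlhe41 had the widest spread of group means among the newborn groups. The build is GRCm38.p6, all 3 windows lie on the minus strand, and capitals mark matches to the motifs named next.
Runx1, upstream start, chr16:92826075-92826324: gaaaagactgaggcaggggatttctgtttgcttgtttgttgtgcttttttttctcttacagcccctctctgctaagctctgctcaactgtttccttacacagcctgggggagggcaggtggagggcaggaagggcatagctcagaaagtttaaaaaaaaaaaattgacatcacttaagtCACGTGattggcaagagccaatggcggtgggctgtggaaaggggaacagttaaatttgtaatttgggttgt
Runx1, downstream start, chr16:92697330-92697579: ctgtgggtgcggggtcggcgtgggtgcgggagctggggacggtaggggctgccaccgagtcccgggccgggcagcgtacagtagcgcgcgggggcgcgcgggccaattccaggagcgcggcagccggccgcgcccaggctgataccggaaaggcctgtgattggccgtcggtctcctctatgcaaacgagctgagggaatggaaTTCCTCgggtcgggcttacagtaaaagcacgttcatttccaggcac
Bhlhe41, chr6:145865421-145865670: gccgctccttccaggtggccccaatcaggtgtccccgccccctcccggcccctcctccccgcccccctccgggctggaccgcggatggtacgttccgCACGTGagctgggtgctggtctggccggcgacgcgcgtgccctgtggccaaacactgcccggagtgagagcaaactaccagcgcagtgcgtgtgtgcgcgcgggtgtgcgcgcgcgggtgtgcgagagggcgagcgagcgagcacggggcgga
Motifs were searched on both strands, as GAGGAA for PU.1 (in 23.3% of the 32851 windows of this length), GGAAGT for ETS factors (19.7%), GAAANNGAA for IRF (7.13%), TTGCNNAA for C/EBP (9.56%), TGTGGT for RUNX (14.0%), TGCTGA for MAF (16.1%), CACGTG for the E-box (6.02%) and TAAAAATA for MEF2 (2.45%). The E-box was found 1 time before Bhlhe41 and 1 time before the upstream Runx1 start, and the PU.1 letters 1 time before the downstream one. The windows of Cebpa and Cebpb held none of the 8 motifs, and that of Mef2a held the PU.1 letters 2 times. These are matches of letters only. No window was given for Maf or Bhlhe40.

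Each of the 10 probes exceeded background on all 11 arrays and passed the filter. Over the arrays, 66.8% to 80.4% of probes were well above background. Replicate 3 of each newborn group lay on slide 2, where the upper-quartile signal was 444 to 507 against 174 to 315 on slide 1. All 9 microglial markers measured were above background on every array, as were all 6 astrocyte markers and at least 5 of 6 neuron markers. The summed microglial signal was 428800 to 432100 in A_FACS and 301600 to 319500 in NB_FACS. It was 148400 to 202900 in NB_Control and 292600 to 302300 in NB_Stim. Of these 9, 5 were called lower and 0 higher in NB_Control than in NB_FACS, beside 13.9% and 15.8% of all genes. The summed signal of 8 fibroblast markers was 1104 to 2291 in A_FACS, 1039 to 1242 in NB_FACS, 30630 to 36590 in NB_Control and 18030 to 38710 in NB_Stim. The 6 erythroid markers ran from 8450 to 25230 in A_FACS, from 148800 to 204900 in NB_FACS and from 135.5 to 164.5 in both cultured groups. The 6 endothelial markers ran from 6247 to 12410 in A_FACS, 4766 to 6540 in NB_FACS, 1003 to 1137 in NB_Control and 2095 to 2454 in NB_Stim. Between NB_Stim and NB_Control 1 of these 6 was called higher and 0 lower, beside 1.4% and 2% of all genes. The 3 monocyte markers ran from 1802 to 3389 in A_FACS and from 147.1 to 534.9 in the newborn groups. The 6 astrocyte markers ran from 366.8 to 678.4 and from 1165 to 2097. The 6 neutrophil markers read 5103 in replicate 3 of NB_FACS, against 542.3 and 509.1 in replicates 1 and 2. The 3 oligodendrocyte markers read 2717 in replicate 3 of NB_Stim, against 887.5 and 914.9. The part of these cells in the results was not tested, and in bulk RNA fewer cells of a type cannot be told apart from less RNA per cell.

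With cytokines, 3 of the 7 factors were called (NB_Stim against NB_Control, limma, adjusted p under 0.05), where 3.4% of all 19560 genes were called. Cebpa and Bhlhe41 were higher, beside 1.4% of all genes called higher, and Maf was lower, beside 2% called lower. In untreated culture 3 were called (NB_Control against NB_FACS), beside 29.7% of all genes, with Maf and Bhlhe41 higher (15.8% of all genes) and Mef2a lower (13.9%). Between NB_Stim and NB_FACS 4 were called, beside 31.1% of all genes, with Cebpa, Bhlhe40 and Bhlhe41 higher (16% of all genes) and Maf lower (15.1%).

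Adult cells had 4 factors higher than NB_FACS, namely Runx1, Cebpa, Mef2a and Bhlhe41, beside 22.7% of all genes called and 9.75% called higher. Against A_FACS, NB_Control differed in 4 of the 7 beside 40.8% of all genes, with Maf higher (23.2% of all genes) and Runx1, Cebpa and Mef2a lower (17.7%). NB_Stim differed from A_FACS in 3, beside 40.2%, and all 3 (Maf, Runx1 and Mef2a) were lower, beside 17.5% called lower and 22.8% called higher. Over the 4 groups the F test called 6 of the 7, all but Cebpb, beside 48.8% of all genes. Arrays of the compared groups did not overlap in 5 of the 7 factors between NB_Stim and NB_Control (24% of all genes), 4 between NB_Control and NB_FACS (44.2%), 6 between NB_Stim and NB_FACS (43.5%) and 4 between A_FACS and NB_FACS (51.2%). Against A_FACS this held for 5 factors in NB_Control (66.4% of all genes) and 6 in NB_Stim (63%). These comparisons share groups, so their counts are not independent of each other.

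**Figure D1:**
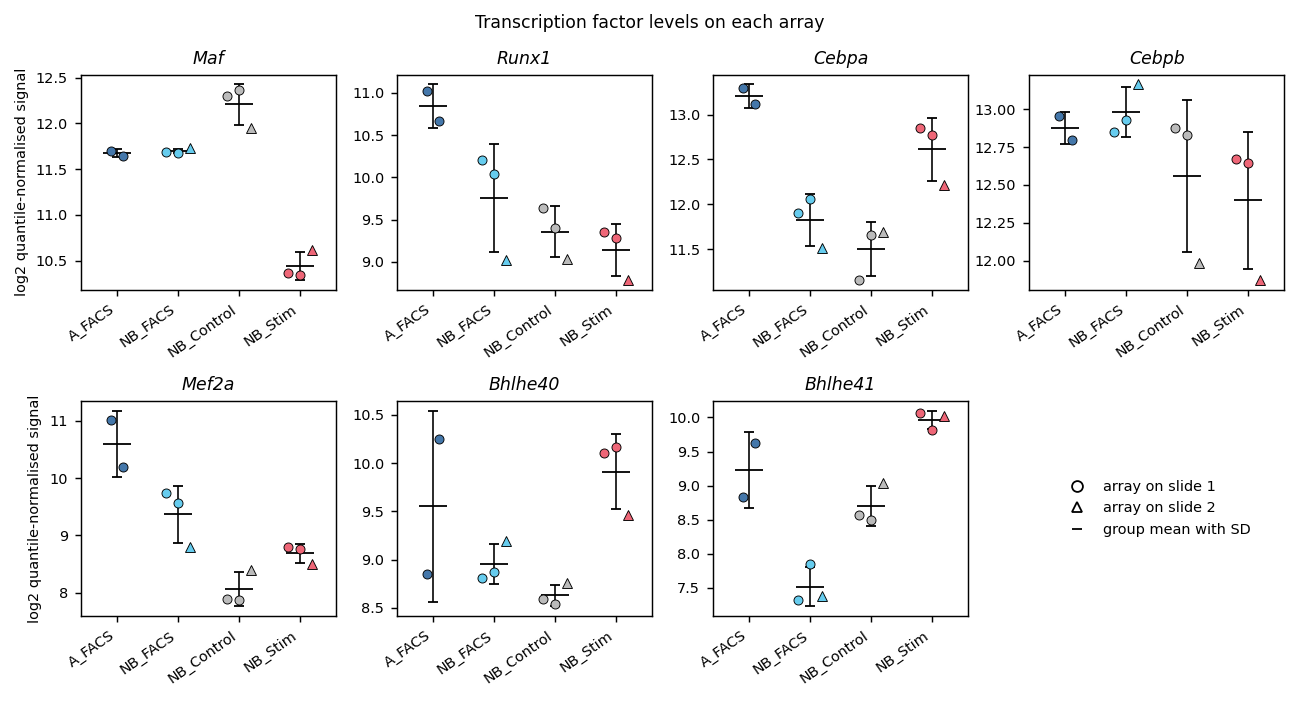
Log2 quantile-normalised signal (vertical axis, own scale in each panel) of the 7 measured factors on each of the 11 arrays, by group, with circles for slide 1, triangles for slide 2 and a bar for the group mean with its SD. The 3 NB_Stim arrays of Maf lie between 10.34 and 10.62, below all other arrays, and those of Bhlhe41 lie between 9.81 and 10.06, above all others.

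Among the 7 factors, Maf alone was called lower with cytokines. Its log2 level was 11.70 and 11.64 in A_FACS and 11.68, 11.68 and 11.73 in NB_FACS. It was 12.30, 12.36 and 11.95 in NB_Control and 10.37, 10.34 and 10.62 in NB_Stim. The adult and newborn sorted groups overlapped, the untreated cultures lay above both on every array, and the cytokine-treated cultures lay below every other array. NB_Stim fell by 1.77 on the log2 scale from NB_Control (SE 0.14, 3.4-fold, limma adjusted p = 0.000217), a difference that ranked 130 from the lowest among 19560 genes. It fell by 1.26 from NB_FACS as well (SE 0.14, 2.39-fold, adjusted p = 0.000141). The rise of NB_Control over NB_FACS was smaller, at 0.51 (SE 0.14, 1.42-fold, adjusted p = 0.0226). A_FACS and NB_FACS differed by -0.03, with a 95% confidence interval from -0.38 to 0.33. Against A_FACS, NB_Stim differed by -1.23 (adjusted p = 0.00028) and NB_Control by 0.54 (adjusted p = 0.0233), the latter losing its call without replicate 1 or 2 of A_FACS or of NB_Control (adjusted p 0.0743 to 0.097). The fall with cytokines kept its call under all 25 tested alternatives, with values from -1.99 to -1.34, and it was -1.98 within slide 1 and -1.34 within slide 2. The rise in untreated culture lost its call in 6 of 25, among them without replicate 1 or 2 of NB_Control (adjusted p 0.0873 and 0.0956) and without replicate 1 or 2 of NB_FACS (0.0635 and 0.0688), and it was 0.65 within slide 1 and 0.23 within slide 2.

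Genes placed downstream of Maf in macrophages, and markers of the macrophages at the borders of the brain, were read beside it. Of 11 listed Maf targets, 2 fell and 0 rose between NB_Control and NB_Stim, beside 2% and 1.4% of all genes. The list median was -1.31 against -0.0008 over all genes. With Cd163, which was not well above background on any NB_Stim array, at its bound and Lyve1 left out, that median was -0.79. The 2 that fell were Mrc1, the mannose receptor gene, from a group mean of 13.33 in NB_Control to 8.08 in NB_Stim (log2 difference -5.25, adjusted p = 3.59e-06), and the endotoxin receptor gene Tlr4 (-1.55, adjusted p = 0.00752). The 3 complement genes C1qa, C1qb and C1qc of the same list differed by 0.32, 0.17 and 0.49 and were not called. Between A_FACS and NB_FACS, where Maf differed by -0.03, 5 of the 11 were lower and 0 higher, beside 22.7% of all genes called. The list median there was -1.35 (-1.11 with Marco left out) against -0.01 over all genes. Between NB_FACS and NB_Control, where Maf rose by 0.51, 2 of the list rose and 2 fell, beside 15.8% and 13.9% of all genes. The list median was -0.05 in that comparison. Mrc1 is also 1 of 8 border macrophage markers, whose summed signal was 425 to 952 in A_FACS, 11790 to 14630 in NB_FACS, 46470 to 87890 in NB_Control and 19480 to 32870 in NB_Stim. Of those 8, Mrc1 alone was called by limma between NB_Stim and NB_Control, beside 3.4% of all genes. At an unadjusted limma p under 0.05 there were 5. The methods' Tukey test called 2 before adjustment over genes (1 after it). The median of the 8 was -1.65 there (-1.63 with Cd163 at its bound and Lyve1 left out). The part of such cells in the Maf values was not tested.

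Maff and Mafk, small MAF proteins without an activation domain, and the BACH partners of this family fell in culture, with log2 differences of -2.51 for Maff, -1.58 for Mafk, -1.20 for Bach2 and -1.18 for Bach1 (adjusted p 9.51e-05 to 0.00165). Of the 6 relatives and partners of Maf counted here, 0 rose and 4 fell between NB_FACS and NB_Control, beside 15.8% and 13.9% of all genes. Between NB_Control and NB_Stim 0 of 6 were called by limma, beside 3.4% of all genes, and 0 by the methods' Tukey test. There 1 was at an unadjusted limma p under 0.05. At that share, 0 in so short a list does not show a lack of response.

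Runx1 gave a different order of the groups on each of its 3 probes, so the mean over them is given first and the probes after it. The mean log2 level was 11.02 and 10.66 in A_FACS, 10.20, 10.04 and 9.03 in NB_FACS, 9.64, 9.40 and 9.04 in NB_Control, and 9.35, 9.28 and 8.79 in NB_Stim. Adult cells were highest and did not overlap with any newborn group, whereas the newborn groups overlapped with each other. A_FACS was 1.09 above NB_FACS (SE 0.35, 2.13-fold, adjusted p = 0.049), and NB_Control and NB_Stim differed from A_FACS by -1.48 and -1.71 (adjusted p = 0.00711 and 0.00356), the former losing its call without replicate 1 of A_FACS (-1.30, adjusted p = 0.0667). NB_Control differed from NB_FACS by -0.40, with a confidence interval from -1.09 to 0.30. This difference was called without replicate 3 of NB_FACS (-0.76, adjusted p = 0.0372) and within slide 1 (-0.60, adjusted p = 0.0261). Within slide 2, with 1 array a group and no test, it had the opposite direction (0.0109). NB_Stim differed from NB_FACS by -0.62, from -1.31 to 0.08, which was not called either. With the replicate number as a block, that difference was called (-0.62, adjusted p = 0.0144), as it was without replicate 3 of NB_FACS (-0.98, adjusted p = 0.0129). That replicate, on slide 2, was the lowest of its group. The adult difference lost its call in 17 of 25 alternatives, and lay at 0.91 without replicate 1 of A_FACS (adjusted p = 0.252) and at 0.72 without replicate 3 of NB_FACS (adjusted p = 0.0885). Of the single arrays left out, only replicate 1 of NB_FACS and replicate 3 of NB_Stim left it called (adjusted p = 0.0333 and 0.0437).

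On the probe MMXS34828 the log2 signal was 9.64 and 9.12 in A_FACS, 8.93, 8.47 and 6.34 in NB_FACS, 6.64, 6.44 and 5.62 in NB_Control, and 5.35, 4.98 and 4.07 in NB_Stim. Signals stepped down from adult to newborn to cultured to cytokine-treated cells by their means, NB_FACS and NB_Control overlapped through replicate 3 of NB_FACS, and the NB_Stim arrays lay below all others. NB_Stim differed from NB_FACS by -3.12 (SE 0.62, adjusted p = 0.00455) and from A_FACS by -4.58 (SE 0.69, adjusted p = 0.000812). Before normalisation the NB_Stim signals of this probe were dim, at 32.56, 21.66 and 31.73, though well above background. The size of these falls, and of the probe gaps given below, rests on such dim signals. How single probes depend on the background correction was not tested. The step from NB_FACS to NB_Control, -1.68 (SE 0.62), and that from NB_Control to NB_Stim, -1.43, were not called (adjusted p = 0.0765 and 0.346). In these single-probe fits, 26.6% of the 44733 probes were called between NB_Stim and NB_FACS, 25.6% between NB_Control and NB_FACS, 2.49% between NB_Stim and NB_Control, 19.3% between A_FACS and NB_FACS and 36.6% between either cultured group and A_FACS.

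On MMXS56176 the newborn groups stood in the opposite order by their means. The log2 signal was 10.75 and 10.50 in A_FACS, 9.68, 9.84 and 9.78 in NB_FACS, 10.84, 10.62 and 10.73 in NB_Control, and 10.85, 10.85 and 11.16 in NB_Stim. The 3 NB_FACS arrays were the lowest of all, the NB_Control and adult arrays overlapped, and the 3 NB_Stim arrays lay above both adult arrays. The rise over NB_FACS was 0.97 in NB_Control (SE 0.15, adjusted p = 0.000997), 1.19 in NB_Stim (SE 0.15, adjusted p = 0.000298) and 0.86 in A_FACS (SE 0.16, adjusted p = 0.00602). The probe MMXS19516 followed neither, at 12.69 and 12.37 in A_FACS, 12.001, 11.81 and 10.96 in NB_FACS, 11.44, 11.14 and 10.76 in NB_Control, and 11.85, 12.01 and 11.13 in NB_Stim. None of its differences between newborn groups was called (adjusted p 0.339 to 0.892). On this probe NB_Control differed from A_FACS by -1.42 (adjusted p = 0.0127), and NB_Stim differed from A_FACS by -0.87, which was not called (adjusted p = 0.0875).

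The inequality of change can be read within arrays. From NB_FACS to NB_Stim, the log2 change of MMXS34828 minus that of MMXS56176 was -4.30, and the 3 arrays of each group did not overlap in that difference (exact two-sided permutation p = 0.1, the smallest that 3 against 3 arrays can give). From NB_FACS to NB_Control the gap between both probes was -2.65, and from NB_Control to NB_Stim it was -1.65, each again without overlap (exact permutation p = 0.1). Between A_FACS and NB_FACS these 2 probes differed in their change by 0.60, and the arrays overlapped. Slide 2 held the lowest array of each newborn group on MMXS34828 and on MMXS19516, but of none on MMXS56176.

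**Figure D2:**
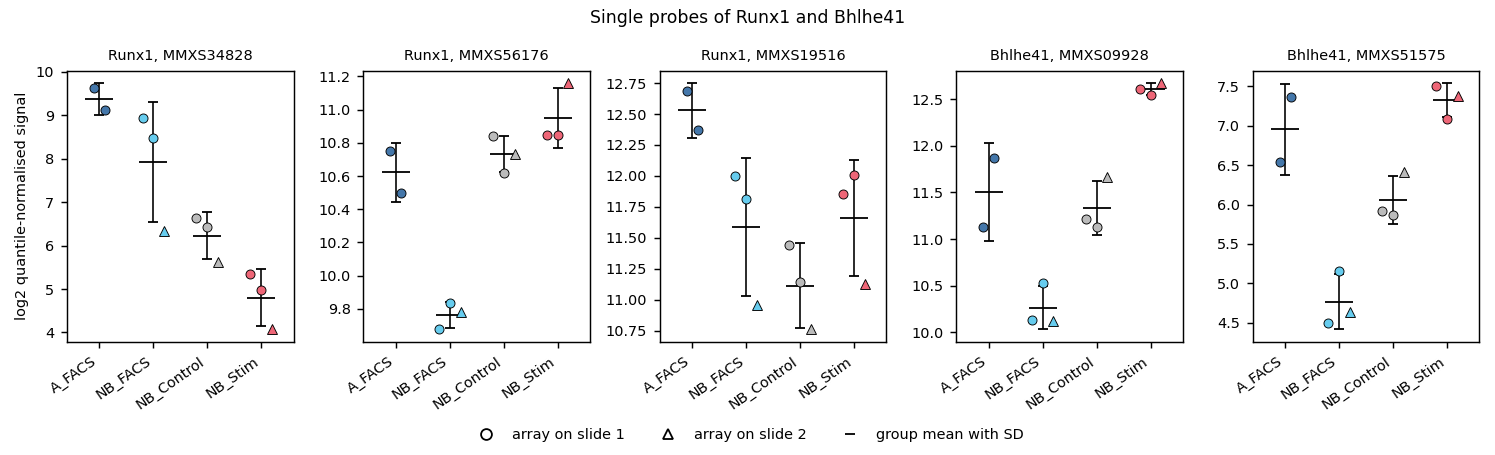
Log2 quantile-normalised signal (vertical axis, own scale in each panel) of the 3 Runx1 probes and the 2 Bhlhe41 probes on each array, by group, with circles for slide 1, triangles for slide 2 and a bar for the group mean with its SD. MMXS34828 falls from 8.93, 8.47 and 6.34 in NB_FACS to 5.35, 4.98 and 4.07 in NB_Stim while MMXS56176 rises, and both Bhlhe41 probes rise from NB_FACS over NB_Control to NB_Stim.

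Among the partners of Runx1, Cbfb, its non-DNA-binding subunit, had group means of 9.76, 10.11, 9.71 and 9.93 in A_FACS, NB_FACS, NB_Control and NB_Stim and was called in none of the 4 comparisons named here (differences from -0.40 to 0.22). The relatives Runx2, known from bone, and Runx3, known from lymphocytes and sensory neurons, both rose in culture. Runx2 was 1.02 higher in NB_Control than in NB_FACS (adjusted p = 0.00269) and Runx3 was 1.40 higher (adjusted p = 0.0309). In NB_Stim the rises over NB_FACS were 1.46 and 2.82 (adjusted p = 0.000337 and 0.000768). From NB_Control to NB_Stim the means went from 7.68 to 8.11 in Runx2 and from 6.60 to 8.01 in Runx3, neither called. The summed fibroblast markers given above were also higher in both cultured groups than in NB_FACS. Between NB_Control and NB_Stim the median of these 8 markers was -0.12, with 0 called higher and 1 lower, beside 1.4% and 2% of all genes. The part of fibroblasts was not tested.

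Cebpa was high in adult cells and was raised in newborn cultures by the cytokines. Its log2 level was 13.30 and 13.11 in A_FACS, 11.91, 12.06 and 11.51 in NB_FACS, 11.16, 11.66 and 11.70 in NB_Control, and 12.85, 12.77 and 12.21 in NB_Stim. The NB_Stim arrays lay above all NB_FACS and NB_Control arrays and below both adult arrays, and NB_FACS and NB_Control overlapped. Cytokines raised it by 1.11 over NB_Control (SE 0.23, 2.16-fold, adjusted p = 0.0298) and NB_Stim was 0.79 above NB_FACS (SE 0.23, 1.73-fold, adjusted p = 0.0249). A_FACS was 1.38 above NB_FACS (SE 0.25, 2.6-fold, adjusted p = 0.00412). NB_Control differed from NB_FACS by -0.32, with an interval from -0.83 to 0.19. Within slide 1 this difference was -0.57 and was called (adjusted p = 0.0453), and within slide 2, with 1 array a group and no test, it had the opposite direction (0.19). Against A_FACS, NB_Control differed by -1.70 (adjusted p = 0.00058), and NB_Stim differed by -0.59, which was not called (adjusted p = 0.0907). The rise with cytokines was called in 17 of 25 alternatives and was 1.40 within slide 1 but 0.52 within slide 2. It lost its call without replicate 1 or 2 of NB_Control (0.94 and 1.19, adjusted p = 0.112 and 0.0717) and without replicate 1 or 2 of NB_Stim (0.99 and 1.03, adjusted p = 0.126 and 0.124). The rise of NB_Stim over NB_FACS lost its call without replicate 1 or 3 of NB_FACS (adjusted p = 0.0522 and 0.0713) and without replicate 1 or 2 of NB_Stim (0.0935 and 0.0862).

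Cebpb was called in none of the 6 comparisons, by limma (unadjusted p from 0.0642 to 0.744) or by the methods' Tukey test. Its log2 level was 12.95 and 12.80 in A_FACS, 12.85, 12.93 and 13.16 in NB_FACS, 12.87, 12.83 and 11.98 in NB_Control, and 12.67, 12.65 and 11.87 in NB_Stim. The slide 2 array was the lowest of both cultured groups and the highest of NB_FACS. Between NB_Stim and NB_FACS the difference was -0.58, with an interval from -1.21 to 0.04, and the groups did not overlap. It was -0.23 within slide 1 and -1.29 within slide 2, and it was called under 75th percentile scaling (-0.80, adjusted p = 0.0487). Between NB_Stim and NB_Control it was -0.16, from -0.79 to 0.46, and between A_FACS and NB_FACS -0.10, from -0.80 to 0.59.

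Other C/EBP factors moved in untreated culture. All 4 listed relatives were called between NB_FACS and NB_Control, with 2 higher and 2 lower, beside 15.8% and 13.9% of all genes. Cebpd, an acute-phase member, rose by 1.85 (adjusted p = 0.000142) and Cebpg, a member without an activation domain, by 1.44 (adjusted p = 0.00341). Ddit3, the stress-induced member CHOP, fell by 1.12 (adjusted p = 0.0138). The granulocyte factor Cebpe was not well above background on any cultured array and was at least 3.14-fold lower in NB_Control than in NB_FACS (adjusted p = 0.00159), a bound set against the dimmest signal well above background. None of the 4 was called between NB_Control and NB_Stim by limma, beside 3.4% of all genes, or by the methods' Tukey test. There 1 was at an unadjusted limma p under 0.05 (Cebpg differed by 0.66, adjusted p = 0.298). Cebpd differed by -0.46 there (adjusted p = 0.346). Between NB_FACS and NB_Control the median of 13 listed C/EBP targets was 0.57 against 0.09 over all genes. Of the 13, 6 rose and 2 fell, beside 15.8% and 13.9% of all genes. They were led by the acute-phase gene Saa3, which rose by 6.60 (adjusted p = 2.99e-05), the cytokine gene Tnf, which fell by 4.05 (adjusted p = 1.59e-07), and the lysozyme gene Lyz2, which rose by 3.403 (adjusted p = 0.000122), and Cebpe is on that list too. With cytokines 1 of the 13 was called, Il6, which fell by 2.85 (adjusted p = 0.000602), beside 3.4% of all genes called.

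Mef2a was highest in adult cells and lowest in untreated cultures. Its log2 level was 11.01 and 10.19 in A_FACS, 9.74, 9.56 and 8.80 in NB_FACS, 7.90, 7.88 and 8.40 in NB_Control, and 8.80, 8.77 and 8.49 in NB_Stim. The 4 groups did not overlap, with NB_Stim between NB_Control and NB_FACS, although its highest array and the lowest NB_FACS array both read 8.80. NB_Control differed from NB_FACS by -1.31 (SE 0.29, 2.48-fold, adjusted p = 0.00661) and A_FACS was 1.23 above NB_FACS (SE 0.32, 2.35-fold, adjusted p = 0.0215). The difference between NB_Stim and NB_Control was 0.63, with an interval from -0.02 to 1.27, and was not called (adjusted p = 0.344). That between NB_Stim and NB_FACS was -0.68, from -1.32 to -0.04 (adjusted p = 0.105), and was called without replicate 3 of NB_FACS (-0.96, adjusted p = 0.0216). Within slide 1 the fall in untreated culture was -1.76, and within slide 2 it was -0.40. The adult difference lost its call without replicate 1 of A_FACS (0.83, adjusted p = 0.194). Against A_FACS, NB_Control differed by -2.54 (SE 0.32, 5.82-fold, adjusted p = 0.000218) and NB_Stim by -1.91 (SE 0.32, 3.77-fold, adjusted p = 0.00124), and both kept their calls in all 25 alternatives.

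Of the 6 measured MEF2 relatives and class IIa deacetylases, which bind MEF2 proteins and repress their targets, 2 rose and 0 fell between NB_FACS and NB_Control. Over all genes 15.8% rose and 13.9% fell there. The 2 that rose were Hdac4 (0.74, adjusted p = 0.0361) and Hdac7 (0.60, adjusted p = 0.00748). Mef2d had group means of 8.05, 7.33, 7.09 and 7.29 in A_FACS, NB_FACS, NB_Control and NB_Stim and was called in none of the 4 comparisons (adjusted p 0.262 to 0.948). Hdac9 rose with cytokines by 0.93 (adjusted p = 0.0216), beside 1.4% of all genes called higher. Mef2c was removed by the filter on dim probes, which does not show that the gene is not expressed.

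Bhlhe41 rose at each step from sorted newborn cells to untreated and to treated cultures. Its mean log2 level over both probes was 8.84 and 9.62 in A_FACS, 7.31, 7.84 and 7.38 in NB_FACS, 8.56, 8.50 and 9.04 in NB_Control, and 10.06, 9.81 and 10.03 in NB_Stim. The NB_FACS arrays were the lowest, the NB_Stim arrays the highest, and NB_Control and A_FACS overlapped between them. NB_Control was 1.19 above NB_FACS (SE 0.24, 2.27-fold, adjusted p = 0.0042), NB_Stim 1.27 above NB_Control (SE 0.24, 2.41-fold, adjusted p = 0.0199) and NB_Stim 2.45 above NB_FACS (SE 0.24, 5.48-fold, adjusted p = 5.66e-05). A_FACS was 1.71 above NB_FACS (SE 0.27, 3.28-fold, adjusted p = 0.00171). The rise over NB_FACS in NB_Stim and that in A_FACS kept their calls in all 25 alternatives, and the rise with cytokines in 18 of 25, with values from 0.99 to 1.44. That rise lost its call without replicate 1 or 2 of NB_Control (1.20 and 1.17, adjusted p = 0.0842 and 0.0887) and without replicate 1, 2 or 3 of NB_Stim (1.22, 1.34 and 1.24, adjusted p = 0.0862, 0.0575 and 0.0524).

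Both Bhlhe41 probes went the same way. The probe MMXS09928 read 11.13 and 11.87 in A_FACS, 10.13, 10.53 and 10.13 in NB_FACS, 11.21, 11.13 and 11.67 in NB_Control, and 12.61, 12.54 and 12.67 in NB_Stim. The probe MMXS51575 read 6.54 and 7.37 in A_FACS, 4.50, 5.16 and 4.64 in NB_FACS, 5.91, 5.86 and 6.41 in NB_Control, and 7.51, 7.08 and 7.38 in NB_Stim. Before normalisation the NB_FACS signals of MMXS51575 were dim, at 14.88, 28.53 and 44.36, though well above background. Their rises with cytokines were 1.27 and 1.26 (adjusted p = 0.018 and 0.0414). They parted over adult cells, since NB_Stim was above A_FACS by 1.11 on MMXS09928 (adjusted p = 0.00739) and by 0.37 on MMXS51575 (adjusted p = 0.359). The mean over both gave 0.74 (adjusted p = 0.0512). It was 0.35 without replicate 1 of A_FACS (adjusted p = 0.416) and 1.13 without replicate 2 of A_FACS, where it was called (adjusted p = 0.0153).

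Bhlhe40 was called in 1 of the 6 comparisons, higher in NB_Stim than in NB_FACS and close to the threshold. Its log2 level was 8.85 and 10.25 in A_FACS, 8.80, 8.87 and 9.19 in NB_FACS, 8.59, 8.54 and 8.75 in NB_Control, and 10.10, 10.16 and 9.46 in NB_Stim. All NB_Stim arrays lay above all NB_FACS and NB_Control arrays, and of the adult arrays 1 lay inside the range of NB_FACS and 1 above all other arrays. NB_Stim was 1.28 above NB_Control (SE 0.33, 2.43-fold, interval 0.55 to 2.01), which missed the threshold (adjusted p = 0.0711) and was 1.57 within slide 1 and 0.71 within slide 2. It was called without either adult array (adjusted p = 0.0132 each). NB_Stim was 0.96 above NB_FACS (SE 0.33, 1.94-fold, adjusted p = 0.0495), a call that was kept in 10 of 25 alternatives and was lost without replicate 1, 2 or 3 of NB_FACS or of NB_Control and without replicate 1 or 2 of NB_Stim (adjusted p 0.054 to 0.15). It was 1.30 within slide 1 and 0.28 within slide 2. A_FACS was 0.60 above NB_FACS, from -0.22 to 1.41, and this was -0.10 without replicate 2 of A_FACS (adjusted p = 0.865) and 1.30 without replicate 1, where it was called (adjusted p = 0.0227).

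**Figure D3:**
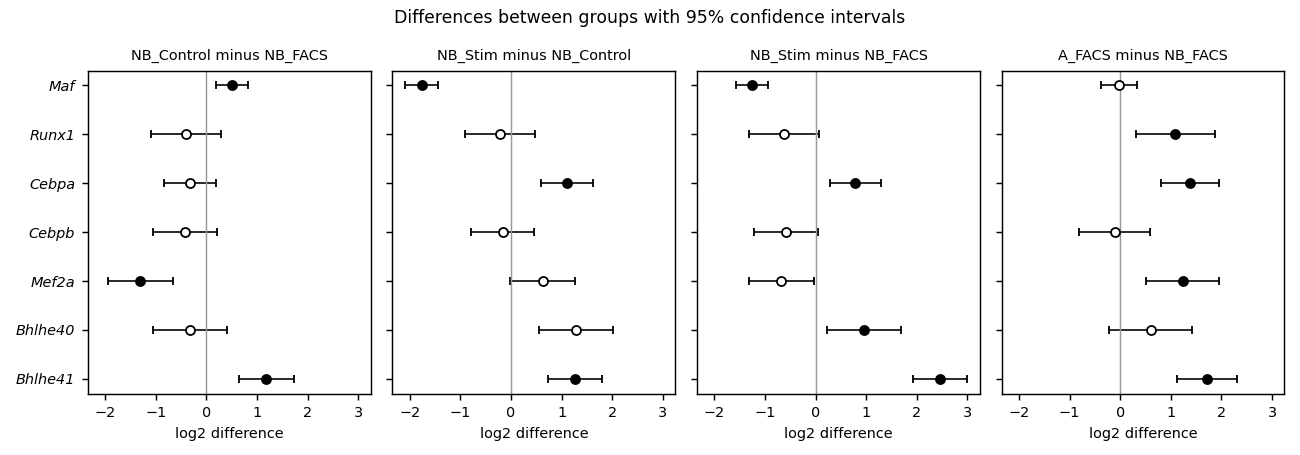
Log2 difference (horizontal axis) of each factor in 4 comparisons, with 95% confidence intervals from the limma fit over 11 arrays, and filled points for an adjusted p under 0.05. Maf lies at -1.77 and Bhlhe41 at 1.27 between NB_Stim and NB_Control, and Cebpb is open in all 4 comparisons.

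Bhlhe40 and Bhlhe41 share E-boxes with the circadian clock, of which 10 other genes were measured. In A_FACS 5 of the 10 were higher than in NB_FACS and 1 was lower, beside 9.75% and 12.9% of all genes. The list median was 0.98 against -0.01 over all genes. The heme-binding repressor gene Nr1d1 was 2.19 higher (adjusted p = 0.00315), Per2 1.69 (adjusted p = 0.00265), and Per1 1.46 (adjusted p = 0.0305). Cry1 fell by 1.40 (adjusted p = 0.00269). Between NB_FACS and NB_Control, 1 of the 10 rose (Dbp, 2.16) and 3 fell (Cry1, -2.19, Per2, -1.36, and Nr1d1, -1.13). Over all genes 15.8% rose and 13.9% fell there. With cytokines 0 of the 10 were called by limma, beside 3.4% of all genes. At an unadjusted limma p under 0.05 there were 4, and the methods' Tukey test adjusted over genes called 0 (1 before that). The largest difference was 0.97 in Per2 (limma adjusted p = 0.0812). The hour at which cells were taken was not given in the sources used here.

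Spi1 and Irf8 themselves were not measured, and their relatives and listed targets are given instead. Those values do not show the level or the activity of either factor. Of 12 ETS relatives of Spi1, 1 rose and 4 fell between NB_FACS and NB_Control, beside 15.8% and 13.9% of all genes. Ets1 fell by 1.54 (adjusted p = 0.00385) and rose again with cytokines by 1.77 (adjusted p = 0.0131), and its group means in NB_FACS, NB_Control and NB_Stim were 9.82, 8.28 and 10.06. Spic, the PU.1 relative of red pulp macrophages that handle heme iron, rose by 1.84 in NB_Control (adjusted p = 0.011). It was not well above background on any NB_Stim array, where it was at least 5.42-fold lower than in NB_Control (adjusted p = 0.00575). Ets2 fell in NB_Control by 1.12 (adjusted p = 0.00547), and Elf2 differed by -1.502 (adjusted p = 0.00315). Between A_FACS and NB_FACS the median of 17 measured PU.1 targets was 0.81 against -0.01 over all genes. Of the 17, 10 were higher and 1 was lower in A_FACS, beside 9.75% and 12.9% of all genes. These were led by Csf1r, the receptor for M-CSF and IL-34 (2.54, adjusted p = 0.000293), and the granulocyte factor receptor gene Csf3r (1.61, adjusted p = 0.00917), and the scavenger receptor gene Msr1 was the one that fell (-1.49, adjusted p = 0.00206). Between NB_FACS and NB_Control 6 of the 17 rose and 1 fell, beside 15.8% and 13.9% of all genes. The list median there was 0.22 against 0.09 over all genes. Group means went from 9.40 to 14.01 in Cybb and from 6.44 to 10.33 in Msr1. Csf1r differed between NB_Stim and NB_Control by 0.08 (adjusted p = 0.951). With cytokines 2 of the 17 rose (Ctss, 0.60, and Ncf1, 0.56) and 3 fell (Tlr4, -1.55, Msr1, -1.12, and Ncf4, -0.77). Over all genes 1.4% rose and 2% fell there.

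Of 5 measured interferon-regulatory relatives of Irf8, 2 rose and 0 fell in NB_Control over NB_FACS, beside 15.8% and 13.9% of all genes. They were Irf7, the driver of type I interferon genes (1.89, adjusted p = 0.000716), and Irf2 (0.94, adjusted p = 0.0167). Irf1, Irf2 and Irf3 were higher in A_FACS than in NB_FACS (1.12, 1.27 and 0.43), beside 9.75% of all genes called higher. Of 7 measured Irf8 targets, 1 rose (Cxcl16, 0.75) and 1 fell (Cd74, the invariant chain of MHC class II, -3.23) in NB_Control. Over all genes 15.8% rose and 13.9% fell there, so these 2 counts are near the shares of all genes. With cytokines 0 of the 5 relatives and 0 of the 7 targets were called by limma, beside 3.4% of all genes. At an unadjusted limma p under 0.05 there were 2 of each. The methods' Tukey test called 1 of each before adjustment over genes (0 after it). Irf5 and Sall1 had no paired probe and were not analysed here.

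**Figure D4:**
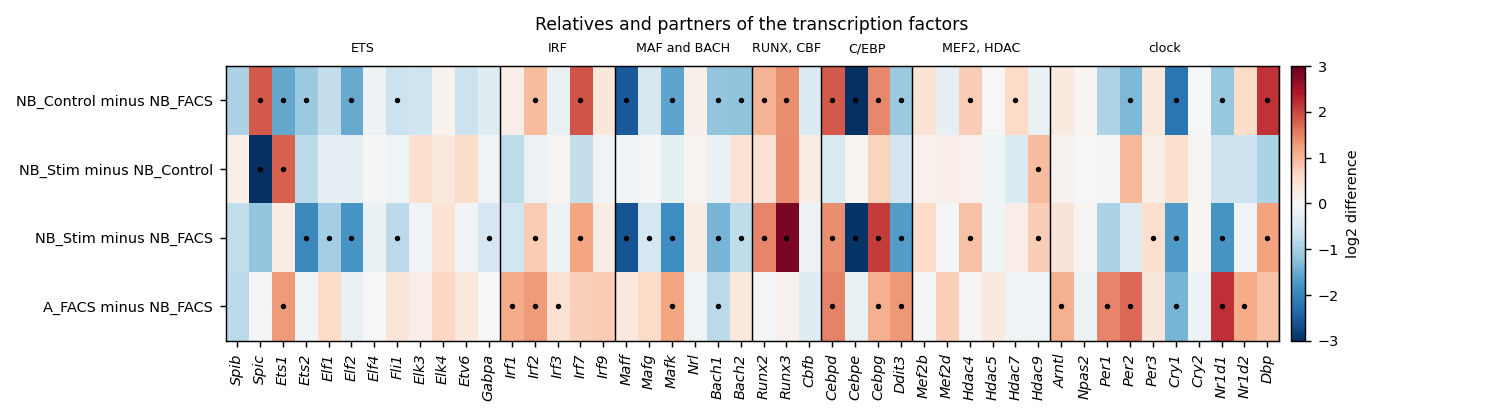
Log2 differences (colour, limited to 3 on either side) of measured relatives and partners of the factors (columns, by family) in 4 comparisons (rows), with a dot for an adjusted p under 0.05. Between NB_Stim and NB_Control 3 columns carry a dot, Spic, Ets1 and Hdac9, and the other 3 comparisons have more.

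Further nuclear factors of macrophages were counted from a list of 21, of which 17 were measured. In NB_Control 6 were higher and 7 lower than in NB_FACS, beside 15.8% and 13.9% of all genes. They were led by Pparg, the lipid-sensing receptor (3.49, adjusted p = 0.00294), and the TGF-β mediator Smad3 (-2.18, adjusted p = 0.00105). Next came the oxysterol receptor gene Nr1h3 (1.87, adjusted p = 0.0068) and the dendritic cell factor Batf3 (-1.66, adjusted p = 0.00356). With cytokines 1 rose and 1 fell, beside 1.4% and 2% of all genes. Pparg fell by 4.59 from NB_Control (adjusted p = 0.00489), with 2 of 3 NB_Stim arrays well above background. Sall3, a zinc finger relative of Sall1, had a mean of 8.51 in NB_FACS, 7.44 in NB_Control and 8.77 in NB_Stim, and rose with cytokines by 1.32 (adjusted p = 0.00385). Smad3 differed by 0.05 between NB_Stim and NB_Control (adjusted p = 0.977).

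The genes most like each factor were taken by Pearson's r over the 11 arrays among 14993 genes well above background on all of them, as a description in which the points share groups and slides. For Maf they were the chemokine gene Ccl9 (0.98), the lectin gene Clec4a3 (0.97) and Arhgap31 (0.96). For Cebpa they were Ss18 (0.96), Naip1 (0.95) and Fam102b (0.93), and for Bhlhe41 Pik3cb (0.96), Rhoq (0.96) and Nsmce3 (0.95). The mean over Runx1 probes was most like Phc2 (0.99), Nsd1 (0.98) and Cdc42bpb (0.97). Mef2a was most like Thrb, Npffr2 and Defb18 (0.97 to 0.98), and Bhlhe40 most like Gm36507, Syngr1 and Pcdhb2 (0.91 to 0.92). The genes closest to Cebpb were 3 small nucleolar RNA genes, Snord47 (0.96), Snord15a (0.92) and Snora30 (0.92). Among the factors themselves, Mef2a and Runx1 were the most alike (0.85), and Bhlhe40 and Maf the most opposed (-0.78).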

How the data were processed

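RNA of 11 samples was labelled with Cy3 and hybridised to a mouse single-colour Agilent array, and the scanner files were made by the authors with Agilent Feature Extraction (11.5.1.1 per the file headers). The deposited values are background-subtracted signal intensity per spot, not normalised between arrays. The table deposited for the series holds the same intensity (0 of 62927 entries differed beyond a relative tolerance of 1e-05). Titles gave the groups and replicate numbers.

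Repeated spots were averaged without outlier flags, log2 was taken, and all probes were quantile normalised in limma 3.58.1 (R 4.3.3). RefSeq transcripts of the probes were paired with symbols through a table of GRCm38.p6, used for names only, which named 36264 probes. Probes had to exceed background throughout 1 group or more (44733 probes, 28032 with a symbol), and probes of a gene were averaged (19560 genes, 4901 with several probes). Some list genes had no paired probe or were filtered out and are not reported here. Each gene was fitted with 1 mean per group (7 residual and 2.69 prior degrees of freedom), the 6 pairwise comparisons and an F test were tested two-sided, and p-values were adjusted by Benjamini and Hochberg over all genes within a comparison. Confidence intervals are 95% from this fit. The fit was tested on simulated data. The number of arrays limits the precision.

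The factors, the gene lists and the tests were chosen with earlier results of these data known. By rule, the text names the 9 factors, of each list up to 4 called genes that moved most, Cbfb, Irf5, Cebpd, Mef2d, Mef2c and Sall1, and the 3 genes most correlated with each factor. One listed gene is not reported here and is left out of its list's counts. Other genes named beside these were chosen after their values were seen. The fits of single probes were added after the data were seen. Alternatives were 75th percentile scaling, normexp (offset 50), other probe filters and probe rules, slide and replicate as blocks, single slides, the 2 groups alone, averaged cultures, the methods' Tukey test, and each array left out.

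The study's methods count n as independent biological replicates. The labels do not say which animals or cultures the arrays came from, and p-values measure the spread between these samples. Same-numbered newborn arrays deviated together from their group means (correlations of 0.11 to 0.49 over genes), but so did replicates 1 and 2 of different groups, which shared slide 1 (0.19 to 0.36). Replicate 3 was also slide 2, so number and slide cannot be told apart. Scans followed slides. Replicates 1 and 2 of both cultured groups were the closest pairs (SD of log2 differences 0.26 and 0.29, against 0.39 to 0.70 for others). Figures were drawn with matplotlib.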

Additional observations from a re-analysis of the deposited data

How the results depend on the processing

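Of the 7 measured factors, the number called changed by more than 1.5 times in these cases. Under the methods' Tukey test adjusted over genes, 1 was called between A_FACS and NB_FACS (4 in the main setting), 2 between NB_Control and A_FACS (4), 0 between NB_Control and NB_FACS (3; 3 before adjustment over genes), 1 between NB_Stim and NB_Control (3) and 2 between NB_Stim and NB_FACS (4), where 2 were called before that adjustment too. With cultured replicates 1 and 2 averaged, 2 were called between A_FACS and NB_FACS, 1 between NB_Stim and NB_Control and 2 between NB_Stim and NB_FACS. In fits of only the 2 groups, 2 were called between A_FACS and NB_FACS, and within slide 1, 5 between NB_Control and NB_FACS. Leaving out 1 array at a time gave 2 to 4 calls between NB_Control and NB_FACS, 1 to 4 between NB_Stim and NB_Control (1 without replicate 1 or 2 of either group), 2 to 4 between NB_Stim and NB_FACS (2 without replicate 1 of NB_FACS or replicate 1 or 2 of NB_Stim), 3 to 4 between A_FACS and NB_FACS and between NB_Control and A_FACS, 3 to 5 between NB_Stim and A_FACS (5 without replicate 2 of A_FACS), and 5 to 6 in the F test. Leaving out 1 array turned the direction of 4 differences that were not called. A_FACS minus NB_FACS ran from -0.10 (without replicate 2 of A_FACS) to 1.30 in Bhlhe40 and from -0.057 to 0.0049 (without that replicate) in Maf, NB_Stim minus A_FACS from -0.34 (without replicate 1 of A_FACS) to 1.06 in Bhlhe40, and NB_Stim minus NB_Control from -0.45 to 0.099 (without replicate 3 of NB_Stim) in Cebpb. Runx1 turned with the probe: NB_Stim minus NB_Control was 0.55 on its brightest probe, MMXS19516, and 0.0385 under normexp, and NB_Stim minus NB_FACS was 0.0736 on that probe. On MMXS56176 alone all turned but the adult difference, at 0.97 (NB_Control minus NB_FACS), 1.19 (NB_Stim minus NB_FACS), 0.22 (NB_Stim minus NB_Control), 0.11 (NB_Control minus A_FACS) and 0.33 (NB_Stim minus A_FACS), although the mean over probes was called lower in both comparisons with A_FACS. With replicate number as a block, by which newborn arrays were paired, NB_Stim minus NB_FACS in Runx1 became called (-0.62, adjusted p = 0.0144) and no other member's call changed. Over all genes, 666 were called between NB_Stim and NB_Control, against 1006 under normexp, 1192 and 1476 with replicate or slide as a block, 1031 within slide 1, 118 with cultures averaged, 1590 and 183 under the methods' Tukey test before and after adjustment over genes, and 304 to 703 with 1 array left out (304 to 337 without replicate 1 or 2 of NB_Control or NB_Stim). That adjusted test called 3547 between NB_Control and NB_FACS (5810), 3620 between NB_Stim and NB_FACS (6083), 2014 between A_FACS and NB_FACS (4435), and 4880 and 4654 for both cultured groups against A_FACS (7984 and 7870). Without replicate 1 of A_FACS the last 3 counts were 2455, 5187 and 4891, and with only the 2 groups A_FACS minus NB_FACS gave 2924. Keeping probes without a symbol raised the tested features to 36261 and gave 7023 to 13314 calls in the 5 other pairs and 15587 (9551) in the F test. The causes were not tested.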
